A study of Mus musculus with 9 samples.

Results

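Homeobox and paired-box genes outside the Hox clusters were followed through 3 structures of the fetal mouse kidney. Members were the genes whose array annotation gave exactly 1 symbol beginning with Irx, Lhx, Meis, Pbx, Emx, Dlx, Msx, Pax, Pitx, Nkx, Otx, Prrx, Tgif, Cux or Satb or with the stem of Six3 to Six6, each followed by a number, or of the form Pou, number, f, number. Lhx1, Pax2, Pax8, Six2 and Meis1 were left out by the rule. It found 70 genes on 107 probe sets, of 12393 genes with 1 symbol on the array, and no Emx gene was among them. Dlx1as and Dlx6os2 are antisense transcripts of the Dlx family and were kept because their symbols met the rule. Each gene was read from its brightest probe set (by the mean of all 9 arrays), and 23 members had several to choose from.

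All samples came from wild-type mice of strain 129 at E14.5 (Theiler stage 22), of unknown sex. Renal vesicles, s-shaped bodies and collecting ducts were dissected by their shape, and each structure was measured on 3 Affymetrix MOE430A arrays. A renal vesicle or s-shaped body sample pooled 20 structures, while the labels give the ducts a pool size of 1 and count them as not pooled, and every RNA went through 2 rounds of T7 amplification. The submitters treat the collecting duct as the reference for the nephron structures. Replicates are separate samples by the labels, which do not tie them to separate embryos, so p-values measure only the spread between these samples.

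The renal vesicle is the first epithelial stage of the nephron, formed when cap mesenchyme condenses beside a tip of the branching ureteric tree. It elongates into the s-shaped body, whose proximal end takes in endothelial cells and becomes the glomerulus, whereas the collecting duct descends from the ureteric bud. Homeobox proteins bind DNA through a homeodomain, a short helical fold, and families differ in the partner domains beside it. Iroquois, Meis, Pbx and Tgif proteins carry a homeodomain with extra residues between its helices (the TALE class), Pou proteins a POU domain, Satb and Cux proteins CUT domains, Six4 and its relatives a domain that binds EYA proteins, and Pax proteins a paired domain. In the kidney such factors are known for setting nephron progenitor identity and the segments of the tubule.

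Levels below are log2 of the deposited intensity plus 26 after quantile normalization, on which the median probe set of an array lies at 7.28 and the lowest value at 4.71. Levels of different genes are not compared, because probe sets differ in how brightly they hybridize. A gene was tested if its probe set lay above the median of its own array in at least 3 arrays, which 21 members did and 49 did not. A difference is called where its adjusted p is under 0.05 over the 7984 genes tested. Over those genes 49.6% differed over the 3 structures by the moderated F test, and so did 13 of the 21 tested members. These were Irx1, Irx3, Irx5, Meis2, Pbx2, Pbx3, Tgif1, Tgif2, Msx1, Msx2, Msx3, Six4 and Satb1. Cux1, Six5, 3 Pou genes and 3 Nkx genes were tested with no call.

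Against the collecting duct, the renal vesicle was higher for 4 tested members (Irx3, Irx5, Meis2, Pbx3) where 15.6% of all tested genes were higher, and lower for 3 (Msx2, Msx3, Satb1) where 15.9% were lower. The s-shaped body was higher than the duct for 5 (Irx3, Meis2, Msx1, Pbx2, Pbx3; background 16.9%) and lower for 4 (Msx2, Six4, Tgif1, Tgif2; background 15.9%). Against the renal vesicle, the s-shaped body was higher for 4 members (Meis2, Msx1, Pbx2, Satb1; background 18.5%) and lower for 6 (Irx1, Irx3, Irx5, Six4, Tgif1, Tgif2; background 17.8%). The median size of a difference was 0.31 over the tested members and 0.37 over all genes for renal vesicle against duct. It was 0.67 against 0.36 for s-shaped body against duct, and 0.52 against 0.40 between the nephron structures. The comparisons share arrays pairwise and are not independent of each other.

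**Figure D1:**
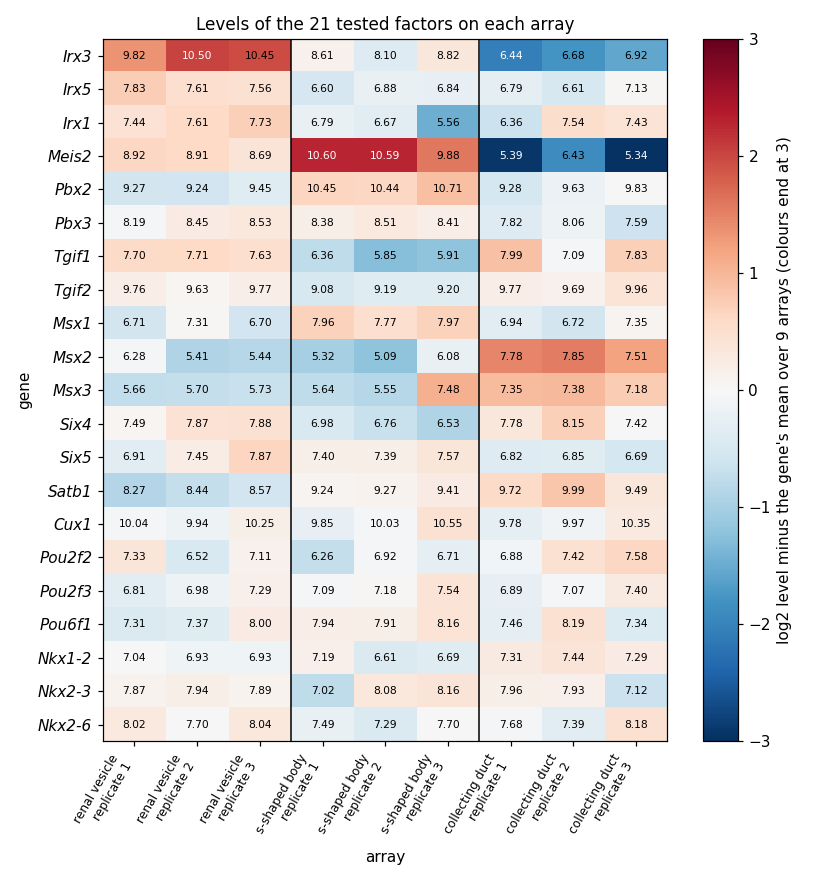
Level of the 21 tested members (rows) on each of the 9 arrays (columns), printed in each cell as log2 of intensity plus 26 after quantile normalization and coloured by the difference from the gene's mean over the arrays, with vertical lines between structures. Irx3 steps down from renal vesicle to s-shaped body to collecting duct, Meis2 is highest in the s-shaped body, and Msx2 is highest in the collecting duct.

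The sequences just before the transcription starts are shown for the member with the widest difference in the renal vesicle (Irx3), in the s-shaped body (Meis2) and in the collecting duct (Msx2), and for the widest fall in the s-shaped body against both other structures (Tgif1). Each runs from 250 bases before to 50 after the start, from RefSeq on GRCm38.p6, 5′ to 3′ on the gene's own strand, which is the minus strand in all 4. They lie at chr8:91801605-91801904 for Irx3, chr2:116064570-116064869 for Meis2, chr13:53472731-53473030 for Msx2 and chr17:70851161-70851460 for Tgif1, 1 of its 5 listed starts and 1 of the 2 among them that hold a motif. Capitals mark a match to TAATTA, the core of many homeodomain sites, to TGACAG, a core bound by MEIS and TGIF proteins, or to ATGCAAAT, the octamer of POU proteins, each searched on both strands.
Irx3: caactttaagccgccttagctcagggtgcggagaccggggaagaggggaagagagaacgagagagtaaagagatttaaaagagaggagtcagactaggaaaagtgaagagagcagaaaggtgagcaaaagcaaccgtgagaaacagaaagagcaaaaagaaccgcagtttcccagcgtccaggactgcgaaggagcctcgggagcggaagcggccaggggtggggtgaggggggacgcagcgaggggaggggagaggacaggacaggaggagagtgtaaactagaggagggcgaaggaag
Meis2: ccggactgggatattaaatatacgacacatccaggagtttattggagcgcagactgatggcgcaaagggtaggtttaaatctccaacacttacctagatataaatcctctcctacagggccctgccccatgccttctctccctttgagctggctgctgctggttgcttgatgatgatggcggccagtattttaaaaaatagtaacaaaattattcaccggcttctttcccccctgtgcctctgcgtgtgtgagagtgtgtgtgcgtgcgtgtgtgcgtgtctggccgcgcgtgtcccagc
Msx2: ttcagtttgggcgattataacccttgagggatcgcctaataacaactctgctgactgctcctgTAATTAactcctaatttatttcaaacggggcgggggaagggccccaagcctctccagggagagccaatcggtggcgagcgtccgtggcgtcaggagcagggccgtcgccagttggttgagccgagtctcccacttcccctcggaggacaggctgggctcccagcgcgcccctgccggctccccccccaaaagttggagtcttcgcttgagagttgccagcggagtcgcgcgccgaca
Tgif1: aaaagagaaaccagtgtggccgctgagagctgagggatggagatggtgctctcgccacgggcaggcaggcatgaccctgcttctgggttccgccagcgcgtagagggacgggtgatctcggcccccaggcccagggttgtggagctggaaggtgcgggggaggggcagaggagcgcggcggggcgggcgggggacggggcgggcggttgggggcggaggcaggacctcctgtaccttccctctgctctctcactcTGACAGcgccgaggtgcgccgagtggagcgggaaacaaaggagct
The Msx2 window holds TAATTA from base 64, and the Irx3 and Meis2 windows hold none of the 3 motifs. The Tgif1 window holds TGACAG from base 256, but it was picked among the 5 Tgif1 starts for holding that motif, so its match is no result. Promoters were found for 53 of the 70 members, 72 windows in all. TAATTA occurred in 5.56% of them and in 5.29% of all 32851 promoter windows. TGACAG occurred in 18.1% of member windows and 19.2% of all, and the octamer in 0 of 72 member windows and 1.74% of all. Shares of both homeodomain cores thus lay close to those of all promoters. G and C made up 56.0% of the Irx3 window, 51.0% of Meis2, 61.0% of Msx2 and 68.7% of Tgif1, against a median of 52.7% over all windows.

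The labelled structures were checked against marker lists before the members were compared, and the intensities of each list were summed per array. Ureteric and duct genes summed to between 37204 and 50306 in the collecting ducts and between 1323 and 1348 in the s-shaped bodies. In the renal vesicles the sums were 9939, 13889 and 2602, a spread made mostly by Calb1, a calcium-binding protein gene of distal nephron and duct. Calb1 alone gave 6589, 9324 and 341 there and 55 to 73 in the ducts, and its renal vesicle level exceeded that of the duct (5.01, adjusted p = 0.00072). Without Calb1 the sums were 3350, 4565 and 2261 in the renal vesicles and 37150 to 50234 in the ducts. The duct sums rest mostly on Krt8, Krt18, Krt19 and Cdh1 (14.24, 13.64, 13.09 and 11.79 in collecting duct replicate 1). Other genes of the list did not rise in the duct. Wnt11 read 8.90, 8.92 and 7.75 in the renal vesicles and 7.06, 6.80 and 7.07 in the ducts. Ret, Hoxb7 and Aqp2 overlapped between these structures, and Wnt9b lay under the median throughout. Of the 10 tested genes of the list, 2 were higher (background 15.6%) and 6 lower (background 15.9%) in the renal vesicle against the duct. Krt19 and Elf5 passed the level filter only through their 3 duct arrays. Podocyte genes reached 52195 to 61190 in the s-shaped bodies, against 6251, 5591 and 13653 in the renal vesicles and 3400 to 5615 in the ducts. Neural genes (344 to 576 on every array) and skeletal muscle genes (234 to 551) were low throughout. Arrays of 1 structure correlated at 0.939 to 0.982 and arrays of different structures at 0.770 to 0.868.

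**Figure D2:**
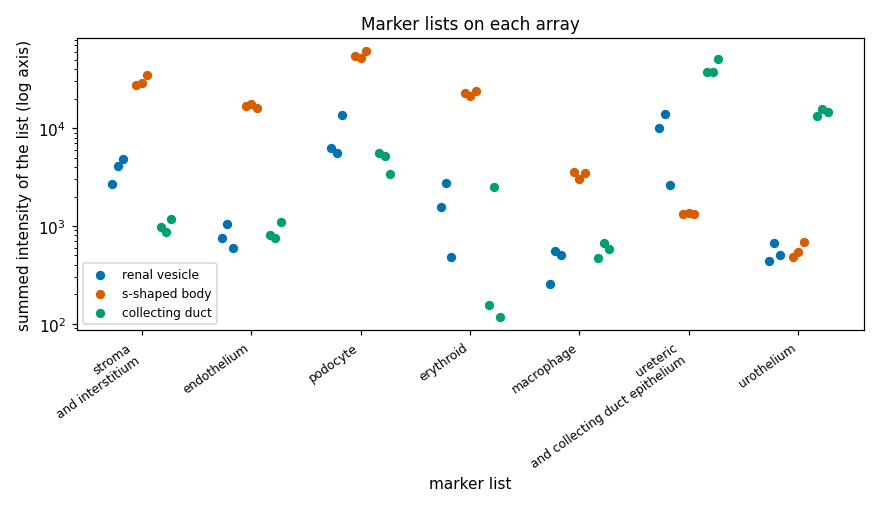
Summed deposited intensity of each marker list on the 9 arrays, on a log axis, with 1 point per array coloured by structure. Stromal, endothelial and erythroid sums are highest in the 3 s-shaped body samples, and urothelial sums are highest in the 3 collecting duct samples.

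The 3 Iroquois genes that could be tested were all called in the comparison of s-shaped body with renal vesicle, and all were lower in the s-shaped body. Iroquois genes encode patterning factors known in the kidney for marking the middle and proximal territories of the growing nephron. Irx3 read 9.82, 10.50 and 10.45 in the renal vesicles, 8.61, 8.10 and 8.82 in the s-shaped bodies, and 6.44, 6.68 and 6.92 in the ducts. The 3 structures formed 3 bands without overlap, with the duct under the array median throughout. The renal vesicle exceeded the duct by 3.58 (SE 0.24, 95% interval 3.05 to 4.11, 11.9-fold, adjusted p = 4.7e-07). The s-shaped body exceeded the duct by 1.83 (SE 0.24, 3.55-fold, adjusted p = 7.9e-05) and lay below the renal vesicle by a difference of -1.75 (SE 0.24, 3.36-fold, adjusted p = 0.00015).

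Irx5, the neighbour of Irx3 on chromosome 8 with 0 protein-coding genes between them in RefSeq, read 7.83, 7.61 and 7.56 in the renal vesicles. Its readings were 6.60, 6.88 and 6.84 in the s-shaped bodies and 6.79, 6.61 and 7.13 in the ducts. All renal vesicle arrays stood above every other array, and the other structures overlapped. The difference from the duct was 0.82 (SE 0.21, 1.77-fold, adjusted p = 0.011), and from renal vesicle to s-shaped body it was -0.90 (SE 0.21, adjusted p = 0.006). Between s-shaped body and duct the difference was -0.07 with a 95% interval of -0.54 to 0.39. Irx5 passed the level filter only through its 3 renal vesicle arrays, and without collecting duct replicate 2 the difference from the duct was 0.71 with an adjusted p of 0.0532. Irx3 and Irx5 were the members with the renal vesicle above both other structures, a pattern found in 8.22% of tested genes.

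Irx1 read 7.44, 7.61 and 7.73 in the renal vesicles, 6.79, 6.67 and 5.56 in the s-shaped bodies, and 6.36, 7.54 and 7.43 in the ducts. Renal vesicle and s-shaped body did not overlap, while 1 duct array fell among the s-shaped bodies and 2 lay beside the renal vesicles. The s-shaped body was lower than the renal vesicle by a difference of -1.25 (SE 0.37, 2.38-fold, adjusted p = 0.018). This call ended without renal vesicle replicate 2 (-1.25, adjusted p = 0.0517), without renal vesicle replicate 3 (-1.17, adjusted p = 0.0501) and without s-shaped body replicate 3 (-0.86, adjusted p = 0.0801). Against the duct the s-shaped body differed by -0.77 (adjusted p = 0.13), which became -1.14 (adjusted p = 0.0259) without collecting duct replicate 1. The remaining Iroquois genes, Irx2, Irx4 and Irx6, were not tested and read between 5.02 and 7.27. Irx2, next to Irx1 on chromosome 13 in RefSeq, read 6.17, 6.25 and 7.27 in the renal vesicles, above its s-shaped body readings (5.45, 5.78, 5.43) and duct readings (5.23, 5.95, 6.08).

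Meis2 was the member with the largest called difference. It encodes a TALE cofactor that binds DNA together with PBX and HOX proteins. Its levels were 8.92, 8.91 and 8.69 in the renal vesicles, 10.60, 10.59 and 9.88 in the s-shaped bodies, and 5.39, 6.43 and 5.34 in the ducts. No structure overlapped another, and the order was s-shaped body, renal vesicle, duct. The s-shaped body exceeded the duct by 4.64 (SE 0.29, 95% interval 4.01 to 5.27, 24.9-fold, adjusted p = 1.5e-07). The renal vesicle exceeded the duct by 3.12 (SE 0.29, 8.7-fold, adjusted p = 6.1e-06), and the s-shaped body exceeded the renal vesicle by 1.52 (SE 0.29, 2.86-fold, adjusted p = 0.0015).

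The s-shaped body samples also held the markers of several other cells. Stromal genes summed to 27831 to 35194 there, against 2671 to 4851 in the renal vesicles and 866 to 1180 in the ducts. Of the 10 tested, 9 rose against the duct (background 16.9%), while against the renal vesicle 8 rose (18.5%) and 1 fell (17.8%). Of the stromal list, Dcn lay under the array median on every array. Pdgfra passed the level filter only through its 3 s-shaped body arrays. Col1a2 (13.62, 13.81 and 14.00 in the s-shaped bodies) made the largest part of the stromal sum there. Tcf21 stands in both the stromal and the podocyte list. Col6a3 was not called in any comparison, and Lum overlapped between the structures. Endothelial genes summed to 16116 to 17540 in the s-shaped bodies, against 589 to 1059 and 750 to 1096. All 10 tested endothelial genes were higher than in each other structure (background 10.8%), and Tie1 lay under the median throughout. Of these, Cdh5, Emcn, Icam2 and Cd34 passed the level filter only through their s-shaped body arrays. Erythroid genes summed to 21089 to 23747 in the s-shaped bodies, against 477 to 2778 and 118 to 2475, with Hba-a1 under the median throughout. Macrophage genes summed to 3036 to 3542, against 257 to 553 and 473 to 669, although 4 of the 6 stayed under the median. That sum rests mostly on Csf1r (11.61, 11.41 and 11.64 in the s-shaped bodies), the only macrophage gene tested. Cd68 read 6.18, 6.27 and 6.29 in the s-shaped bodies and 6.38, 6.88 and 6.49 in the ducts. Foxd1, a transcription factor of the renal stroma, exceeded its duct level by 2.33 in the renal vesicle and by 5.11 in the s-shaped body. The part of these cells in the levels of Meis2, Pbx2 and Msx1 was not tested, nor was their part in the members lower in the s-shaped body. Cdh1, of the ureteric and duct list, read 6.71, 5.96 and 5.85 in the s-shaped bodies and 9.65, 10.16 and 9.62 in the renal vesicles. In bulk samples such as these, fewer cells of a type and less RNA per cell cannot be told apart.

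Pbx genes encode the TALE partners of MEIS and HOX proteins. Pbx2 read 9.27, 9.24 and 9.45 in the renal vesicles, 10.45, 10.44 and 10.71 in the s-shaped bodies, and 9.28, 9.63 and 9.83 in the ducts. Every s-shaped body array lay above all others, while renal vesicle and duct overlapped. The s-shaped body was higher than the duct by 0.95 (SE 0.18, 1.94-fold, adjusted p = 0.0013) and higher than the renal vesicle by 1.21 (SE 0.18, 2.32-fold, adjusted p = 0.00026). Renal vesicle minus duct was -0.26 with an interval of -0.65 to 0.13. Meis2, Pbx2 and Msx1 were the members highest in the s-shaped body against both others, where 10.8% of tested genes showed this.

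Pbx3 read 8.19, 8.45 and 8.53 in the renal vesicles, 8.38, 8.51 and 8.41 in the s-shaped bodies, and 7.82, 8.06 and 7.59 in the ducts. Both nephron structures lay above the duct on every array and overlapped each other. The difference from the duct was 0.57 (SE 0.18, 1.48-fold, adjusted p = 0.03) for the renal vesicle and 0.61 (SE 0.18, 1.53-fold, adjusted p = 0.02) for the s-shaped body. Between the nephron structures it was 0.04 with an interval of -0.35 to 0.43. The call for the renal vesicle ended without its replicate 2 (0.54, adjusted p = 0.0923), its replicate 3 (0.50, 0.0897), duct replicate 1 (0.56, 0.054) or duct replicate 3 (0.46, 0.0746). That for the s-shaped body ended without its replicate 2 (0.57, adjusted p = 0.0735) or duct replicate 3 (0.50, 0.05). Irx3, Meis2 and Pbx3 were the members above the duct in both nephron structures, as were 6.09% of tested genes. Meis3 (6.26 to 6.91) and Pbx4 (4.89 to 5.50) were not tested.

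Both Tgif genes were tested, and both were lower in the s-shaped body than in the other structures. They encode TALE repressors that restrain TGF-beta and retinoid signalling. Tgif1 read 7.70, 7.71 and 7.63 in the renal vesicles, 6.36, 5.85 and 5.91 in the s-shaped bodies, and 7.99, 7.09 and 7.83 in the ducts. All s-shaped body arrays lay below every other array. The difference was -1.60 against the duct (SE 0.26, 3.02-fold, adjusted p = 0.00041) and -1.64 against the renal vesicle (SE 0.26, 3.11-fold, adjusted p = 0.0004). Renal vesicle minus duct was 0.04 with an interval of -0.52 to 0.60.

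Tgif2 was likewise lowest in the s-shaped body, over a narrower range, with 9.76, 9.63 and 9.77 in the renal vesicles, 9.08, 9.19 and 9.20 in the s-shaped bodies, and 9.77, 9.69 and 9.96 in the ducts. Again no s-shaped body array reached the lowest of the other arrays. The s-shaped body differed by -0.65 from the duct (SE 0.15, 1.57-fold, adjusted p = 0.0059) and by -0.56 from the renal vesicle (SE 0.15, 1.48-fold, adjusted p = 0.012). Tgif1, Tgif2 and Six4 were the members lowest in the s-shaped body against both others, as were 6.74% of tested genes. A measure of RNA quality moved with the s-shaped body as well. The ratio of 3′ to 5′ Gapdh probe sets was 20 to 32 in its samples, 12 to 15 in the renal vesicles and 12 to 19 in the ducts, while that of Actb overlapped between structures (30.1 to 50.9 over all arrays). Its part in these differences was not tested.

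**Figure D3:**
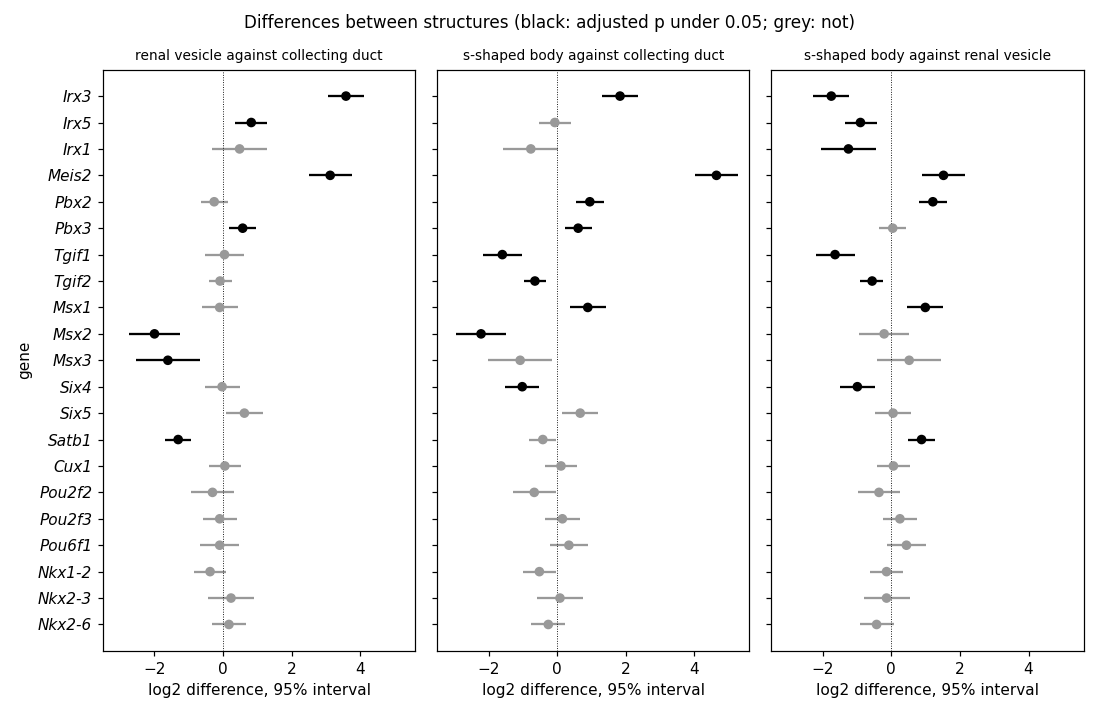
Difference in log2 level with its 95% interval for the 21 tested members in the 3 comparisons, with black points for called differences and grey points for the rest. Meis2 and Irx3 reach the largest positive differences from the collecting duct, and Msx2 the largest negative ones.

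The 3 Msx genes, which encode repressors known as responders to BMP signalling, were called in different directions. Msx2 read 6.28, 5.41 and 5.44 in the renal vesicles, 5.32, 5.09 and 6.08 in the s-shaped bodies, and 7.78, 7.85 and 7.51 in the ducts. The duct arrays stood above all others, and the nephron structures overlapped. Msx2 was lower by a difference of -2.0 in the renal vesicle (SE 0.34, 4-fold, adjusted p = 0.0007) and of -2.22 in the s-shaped body (SE 0.34, 4.65-fold, adjusted p = 0.00024). It was the member below the duct in both nephron structures, as were 8.23% of tested genes. Msx2 passed the filter only through its 3 duct arrays. The duct samples also carried urothelial markers, which summed to 13212 to 15651 there and to 439 to 681 elsewhere. Foxa1 (13.40, 13.56 and 13.29 in the ducts) made most of that duct sum. Of 5 tested genes, 4 were higher in the duct than in each nephron structure (background 8.23%), and Krt5 lay under the median throughout. Upk2 overlapped, at 8.26, 8.71 and 8.11 in the ducts and 8.28, 7.54 and 8.59 in the s-shaped bodies. Foxa1, Trp63 and Upk3a passed the level filter only through their 3 duct arrays. The part of urothelial cells in the level of Msx2 was not tested. The same duct samples serve every comparison with the duct, and the part of these cells in the other differences was not tested either.

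Msx3 read 5.66, 5.70 and 5.73 in the renal vesicles, 5.64, 5.55 and 7.48 in the s-shaped bodies, and 7.35, 7.38 and 7.18 in the ducts. S-shaped body replicate 3 thus read like a duct while the other two read like renal vesicles. The renal vesicle was lower than the duct by a difference of -1.61 (SE 0.43, 3.04-fold, adjusted p = 0.013). The s-shaped body minus duct difference was -1.08 (SE 0.43, adjusted p = 0.073). Msx3 passed the filter through duct replicates 1 and 2 and s-shaped body replicate 3 alone, and without collecting duct replicate 1 or 2, or without s-shaped body replicate 3, it was not tested.

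Msx1 moved the other way. It read 6.71, 7.31 and 6.70 in the renal vesicles, 7.96, 7.77 and 7.97 in the s-shaped bodies, and 6.94, 6.72 and 7.35 in the ducts. Each s-shaped body array was above all others. The s-shaped body was higher by 0.89 than the duct (SE 0.24, 1.86-fold, adjusted p = 0.012) and by 0.99 than the renal vesicle (SE 0.24, 1.99-fold, adjusted p = 0.0061). Without collecting duct replicate 2 the difference from the duct was 0.76 with an adjusted p of 0.0576.

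Six4 encodes a partner of EYA proteins and belongs with its family to the early network of kidney induction. Six4 read 7.49, 7.87 and 7.88 in the renal vesicles, 6.98, 6.76 and 6.53 in the s-shaped bodies, and 7.78, 8.15 and 7.42 in the ducts. The s-shaped bodies were below every other array. They differed by -1.02 from the ducts (SE 0.23, 2.03-fold, adjusted p = 0.0046) and by -0.99 from the renal vesicles (SE 0.23, 1.99-fold, adjusted p = 0.0053), and renal vesicle minus duct was -0.03 with an interval of -0.54 to 0.48.

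Six5, a paralogue of Six4, did not pass the threshold in any comparison. It read 6.91, 7.45 and 7.87 in the renal vesicles, 7.40, 7.39 and 7.57 in the s-shaped bodies, and 6.82, 6.85 and 6.69 in the ducts, so that both nephron structures lay above the duct on every array. The difference from the duct was 0.62 (SE 0.24, adjusted p = 0.072) for the renal vesicle and 0.67 (SE 0.24, adjusted p = 0.053) for the s-shaped body. Without renal vesicle replicate 1 these became 0.86 (adjusted p = 0.0179) and 0.66 (adjusted p = 0.028), and without renal vesicle replicate 3 the latter was 0.66 (adjusted p = 0.0304). Six3 and Six6, known from eye and forebrain, read between 4.77 and 7.0 and were not tested.

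Satb1 encodes a chromatin organizer with CUT domains beside a homeodomain. It read 8.27, 8.44 and 8.57 in the renal vesicles, 9.24, 9.27 and 9.41 in the s-shaped bodies, and 9.72, 9.99 and 9.49 in the ducts. The 3 structures did not overlap and rose in that order. The renal vesicle was lower than the duct by a difference of -1.31 (SE 0.17, 2.47-fold, adjusted p = 0.00013), and the s-shaped body was higher than the renal vesicle by 0.88 (SE 0.17, 1.84-fold, adjusted p = 0.0019). S-shaped body minus duct was -0.42 (SE 0.17, adjusted p = 0.084), which became -0.55 (adjusted p = 0.0274) without collecting duct replicate 3. Satb1 was the member lowest in the renal vesicle against both others, as were 6.31% of tested genes. Its other probe sets placed the duct differently.

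Cux1, a CUT homeobox repressor, was above the array median on all arrays with no call. It read 10.04, 9.94 and 10.25 in the renal vesicles, 9.85, 10.03 and 10.55 in the s-shaped bodies, and 9.78, 9.97 and 10.35 in the ducts. All structures overlapped. The differences were 0.05 (95% interval -0.42 to 0.52) for renal vesicle against duct, 0.11 (-0.36 to 0.58) for s-shaped body against duct and 0.06 (-0.41 to 0.53) between the nephron structures.

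Of the 9 Pou genes, 3 were tested and none was called. Pou2f2 encodes an octamer-binding factor best known from B cells, and its levels ran from 6.26 to 7.58. The s-shaped body minus duct difference of Pou2f2 was -0.67 (95% interval -1.29 to -0.04, adjusted p = 0.098), and without collecting duct replicate 1 it was -0.87 (adjusted p = 0.0496). Pou2f3, known from tuft cells and epidermis, ran from 6.81 to 7.54, and its widest difference was 0.25 (interval -0.25 to 0.75) between the nephron structures. Pou6f1 ran from 7.31 to 8.19, with 0.44 (interval -0.12 to 1.00) between the same structures. Structures overlapped for each of these genes in the comparison named.

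Of the 11 Nkx genes, 3 were tested and likewise had no call. Nkx1-2 read 7.31, 7.44 and 7.29 in the ducts, above each renal vesicle (6.93 to 7.04) and each s-shaped body (6.61 to 7.19). Its differences from the duct were -0.38 (adjusted p = 0.2) and -0.52 (adjusted p = 0.085), and the latter became -0.70 (adjusted p = 0.0426) without s-shaped body replicate 1. Nkx1-2 passed the level filter only through its 3 duct arrays. Nkx2-3 ran from 7.02 to 8.16, and s-shaped body replicate 1 and collecting duct replicate 3 (7.12) were its low arrays. Nkx2-6 ran from 7.29 to 8.18, and its widest difference was -0.43 (interval -0.92 to 0.07) from renal vesicle to s-shaped body. The other 8 Nkx genes, among them Nkx2-1 of lung and thyroid and Nkx2-5 of the heart, read between 4.84 and 7.12 and were not tested. Of these, Nkx6-1 stood at 6.60 in renal vesicle replicate 3 and 6.80 in s-shaped body replicate 3 and between 4.84 and 5.37 on the other arrays.

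For 41 of the 49 members that were not tested, every array lay under its median, and the other 8 reached it on 1 or 2 arrays. They include all 7 Pax genes (Pax1, Pax3, Pax4, Pax5, Pax6, Pax7 and Pax9, at 4.84 to 7.59), factors of eye, somite, thymus and neural crest. They also include all 7 Lhx genes (Lhx2, Lhx3, Lhx4, Lhx5, Lhx6, Lhx8 and Lhx9, at 4.76 to 7.37), LIM homeobox factors of brain, pituitary and gonad. All 8 Dlx transcripts (4.77 to 7.36), known from jaw, limb and forebrain, were among them, as were Pitx1 and Pitx3 (5.36 to 7.42), Prrx1 and Prrx2 (5.03 to 7.47) and Otx2 (4.87 to 6.18). Arrays cannot show that such a gene is off, since a dim probe set may also hybridize poorly.

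**Figure D4:**
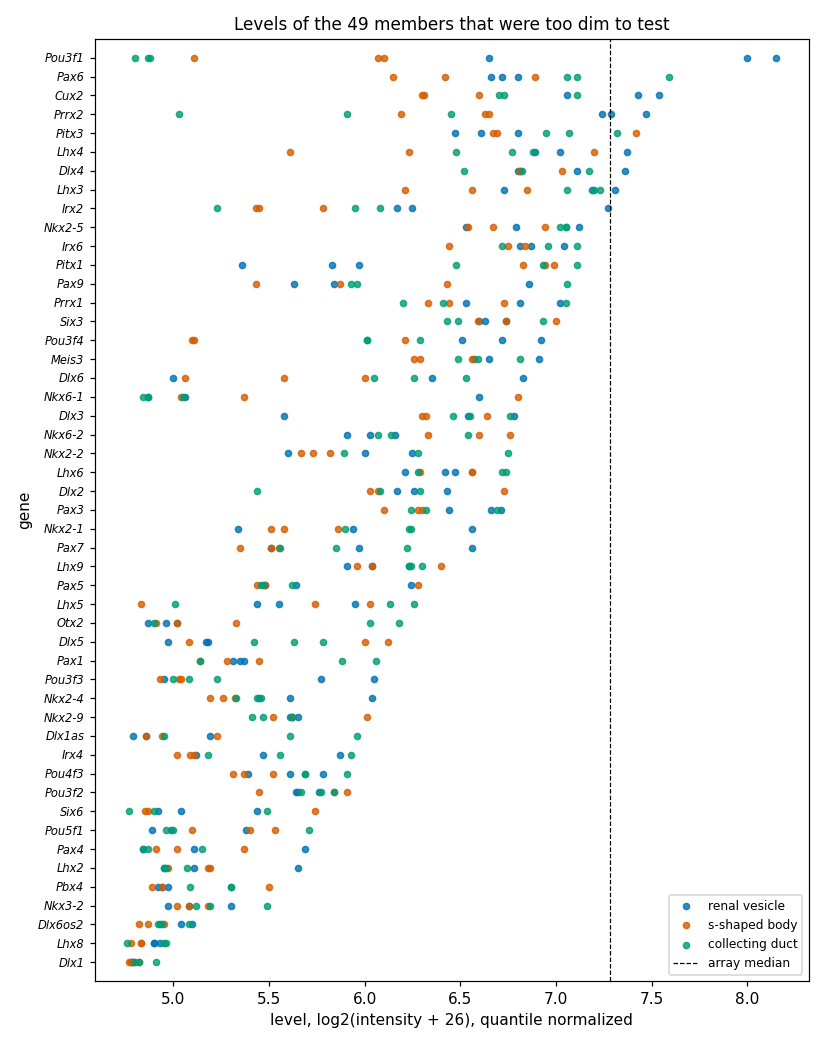
Level of the 49 members that were not tested on the 9 arrays, in log2 of intensity plus 26, with the median of the arrays as a line. Most points lie under the median of 7.28, and Pou3f1 and Prrx2 rise to it or past it in renal vesicle samples.

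Among the 49 dim members, 5 had 1 structure above both others on every array. The share of all dim genes with this pattern was not counted, so the 5 are given as a description only. Pou3f1, a factor of Schwann cell and epidermal differentiation, read 8.00, 8.15 and 6.65 in the renal vesicles, 5.11, 6.10 and 6.07 in the s-shaped bodies, and 4.87, 4.80 and 4.88 in the ducts. Renal vesicle replicate 3, the lowest of its group for Pou3f1, is also the array with the lowest Calb1 (341) and the highest podocyte sum of the 3 (13653), and the part of this in its level was not tested. Prrx2, a paired-related factor of mesenchyme, read 7.24, 7.47 and 7.29 in the renal vesicles, 6.19, 6.65 and 6.63 in the s-shaped bodies, and 5.03, 5.91 and 6.45 in the ducts. Pou3f4, known from inner ear and brain, read 6.72, 6.92 and 6.51 in the renal vesicles and from 5.10 to 6.29 elsewhere. Irx2 shared that order, as given above. Pax6, the eye and pancreas factor, read 7.11, 7.59 and 7.06 in the ducts and from 6.15 to 6.89 in the nephron structures.

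When all 12393 genes were tested with no filter on level, 9.73% were higher and 10.3% lower in the renal vesicle than in the duct, against 5 and 4 of the 70 members. Pou3f1 (2.75, SE 0.39, 6.73-fold, adjusted p = 0.00056) and Prrx2 (1.54, SE 0.32, 2.9-fold, adjusted p = 0.006) were then higher in the renal vesicle, and Pitx1, a hindlimb and pituitary factor, was lower (-1.12, adjusted p = 0.0058). For s-shaped body against duct, 5 members were higher (background 11.6%) and 5 lower (background 10.8%), with Pax6 among the latter (-0.77, adjusted p = 0.04). Between the nephron structures, 5 members were higher in the s-shaped body (background 12.5%) and 10 lower (background 11.5%). Members lower in the s-shaped body that the filter had kept out were Pou3f1 (-1.84, adjusted p = 0.0055), Pou3f4 (-1.24, adjusted p = 0.0094), Irx2 (-1.01, adjusted p = 0.039) and Cux2 (-0.94, adjusted p = 0.0084). Pitx1 was higher there (1.20, adjusted p = 0.0033). Differences this close to the floor of the array are shrunk by the added 26.

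Pou3f3, which encodes the POU factor known for the loop of Henle and distal tubule, stayed under the median. It read 6.05, 4.95 and 5.77 in the renal vesicles, 5.03, 4.93 and 5.04 in the s-shaped bodies, and 5.08, 5.0 and 5.23 in the ducts. Only renal vesicle replicates 1 and 3 left the floor. The tested genes outside the set whose levels correlated best with it over the 9 arrays were Clec11a (r = 0.89), Taf8 (r = 0.88) and Zw10 (r = 0.85), a description that rests on those arrays.

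Several members were read by more than 1 probe set, and the readings did not always match. All 3 probe sets of Pbx2 gave the s-shaped body above the renal vesicle, by 1.06, 1.21 and 1.20, and above the duct, by 0.70, 0.95 and 0.81. For Satb1, all 3 gave the s-shaped body above the renal vesicle (0.82, 0.88 and 1.04), but renal vesicle minus duct was -1.31 on the probe set used and -0.34 and -0.14 on the others. S-shaped body minus duct was -0.42 on the Satb1 probe set used and 0.48 and 0.90 on the others, so the place of the duct depends on the probe set. When the probe sets of a gene were averaged, Satb1 in the renal vesicle against the duct was -0.72 with an adjusted p of 0.0623. The second Msx1 probe set, dimmer than the one used, gave 0.06 for s-shaped body against duct and 0.38 against the renal vesicle (SE 0.27 for each). The second Six4 probe set gave -0.05 and -0.44 for the same comparisons (SE 0.20 for each).

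Prrx1, another paired-related mesenchyme factor, is the member whose readings parted most. On the brightest probe set, the one used, its levels ran from 6.20 to 7.05 with a renal vesicle minus duct difference of 0.23 (SE 0.26). Another Prrx1 probe set read 7.90, 8.11 and 7.32 in the renal vesicles, 6.33, 5.01 and 6.09 in the s-shaped bodies, and 5.01, 5.64 and 5.25 in the ducts. There the renal vesicle exceeded the duct by 2.48 (SE 0.35), without overlap, and the s-shaped body lay below the renal vesicle by a difference of -1.96 (SE 0.35). That probe set meets the level filter, but only through its 3 renal vesicle arrays. With the brightest probe set taken after the filter, 22 members were tested. That setting gave 8 calls for renal vesicle against duct, 9 for s-shaped body against duct and 11 between the nephron structures. The other 2 Prrx1 probe sets gave 0.08 (SE 0.10) and -0.32 (SE 0.31) for renal vesicle against duct. These probe sets were set side by side after their values were seen. The second Pou3f1 probe set, which lay near the floor, gave 0.17 where the one used gave 2.75, and the second Pitx1 probe set gave 0.27 where the one used gave -1.12. The Pbx2 and Msx1 probe sets used are of the kind that can match several transcripts, and the Pou2f2 one is of the kind that can also bind unrelated sequences.

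**Figure D5:**
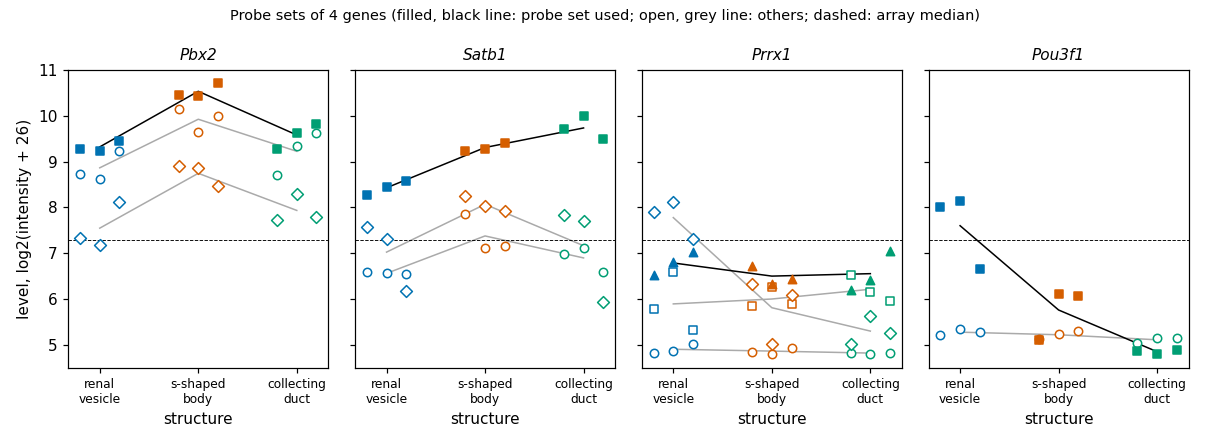
Level on each array (log2 of intensity plus 26) for every probe set of Pbx2, Satb1, Prrx1 and Pou3f1 by structure, with filled points and a black line through the means for the probe set used, open points and grey lines for the others, and the array median dashed. The Pbx2 lines run alike, whereas 1 open Prrx1 line falls from the renal vesicle while the black one stays level.

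The regulators around these families were read from other gene lists. Of the genes left out by the rule, 4 were read, and all 4 exceeded their duct level in the renal vesicle. These were Lhx1 (5.47), Meis1 (2.53), Pax8 (1.52) and Six2 (1.12), known regulators of nephron formation, where 15.6% of all tested genes were higher. From renal vesicle to s-shaped body 3 of them were lower (background 17.8%), Lhx1 by a difference of -4.12, Pax8 by -1.46 and Six2 by -0.71. Meis1 differed between the nephron structures by 0.06, next to the 1.52 of its paralogue Meis2. Of 12 partners and targets of EYA proteins and Six4 relatives, 5 were tested. In the renal vesicle against the duct 1 was higher (Wt1, the podocyte and progenitor factor, 5.95; background 15.6%) and 2 lower (background 15.9%), the progenitor factor Osr1 (-2.65) and the coactivator Eya3 (-0.50). In the s-shaped body against the duct 2 of the 5 were higher (background 16.9%) and 3 lower (background 15.9%), with Wt1 at 7.09, Osr1 at -2.60, Eya3 at -0.64 and the corepressor Dach2 at -1.39. Lhx1 passed the level filter only through its 3 renal vesicle arrays, and Osr1 only through its 3 duct arrays.

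Of 9 LIM cofactors and LIM-only genes read, 7 were tested. LIM-only and Ldb proteins bind the LIM domains or cofactors that Lhx proteins use. In the renal vesicle against the duct 1 rose (background 15.6%) and 2 fell (15.9%), and in the s-shaped body 2 rose (16.9%) and 1 fell (15.9%). Between the nephron structures 3 rose in the s-shaped body (18.5%) and 0 fell (17.8%). With 7 genes tested, counts of 1 lie near the background. Lmo2, also a factor of blood and endothelial cells, was higher than in the duct by 1.18 and 4.73, and Lmo4 was lower by differences of -2.52 and -2.54. Ldb2 was higher in the s-shaped body than in the renal vesicle by 1.32 and Ssbp2 by 1.30. Ldb2 passed the level filter only through its 3 s-shaped body arrays.

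Other homeobox genes, outside both the members and the Hox clusters, gave 43 readings and 14 tests. Relative to the duct, 5 rose (background 15.6%) and 2 fell (15.9%) in the renal vesicle, and 8 rose (16.9%) and 2 fell (15.9%) in the s-shaped body. From renal vesicle to s-shaped body, 4 rose (18.5%) and 2 fell (17.8%). The counts of 2 among 14 lie near the background. Uncx, a paired-type factor of somites, exceeded its duct level by 4.93 in the renal vesicle and fell by 4.40 from there to the s-shaped body. Zeb1, a repressor of epithelial genes, was higher than in the duct by 2.54 and 5.39, Hhex, an endothelial and liver factor, was higher in the s-shaped body than in the duct by 2.47, and Hopx by 2.12. Zfhx3 was lower in both nephron structures, with differences of -2.06 and -2.16. Uncx passed the level filter only through its 3 renal vesicle arrays, and Hhex only through its 3 s-shaped body arrays. Of 15 nephron segment genes read, 11 were tested, and in the renal vesicle 8 of them exceeded their duct level (background 15.6%) with 0 below it (15.9%). In the s-shaped body 3 were higher (16.9%) and 2 lower (15.9%) than in the duct, and 8 of the 11 were lower than in the renal vesicle (17.8%) with 0 higher (18.5%). Jag1, Cdh6 and Papss2 of this list passed the level filter only through their 3 renal vesicle arrays. The list was also chosen with earlier results of these data known, so its counts are a description.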

How the data were processed

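The deposited values are intensity on a linear scale, 1 per probe set and array, made with the Affymetrix software GCOS per the submitters' processing notes, with no version or algorithm given. Trimmed of 2% at either end, every array had a mean of 499.9, so the authors' values had been scaled to a common level, and array medians were 112.2 to 144.8. Arrays give no counts, so their number limits the precision. Of 22690 probe sets, 64 were controls, 20380 had 1 gene symbol, 691 several and 1555 none; symbols were checked against RefSeq, where all 70 members were found.

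Log2 was taken after adding 26, the 20th percentile of all values. Array medians then differed by up to 0.30, and the arrays were quantile normalized. A single limma 3.58.1 model (R 4.3.3; lmFit, eBayes with intensity trend) over the 9 arrays left 6 residual degrees of freedom; its tests were two-sided, with Benjamini-Hochberg adjustment over 7984 genes. The scripts were tested on simulated data. Folds are 2 to the power of the log2 difference and understate changes of dim genes.

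The members and lists were chosen with earlier results of these data known. Every tested member is named; those not tested are named singly where 1 structure lay above both others on every array, or 1 array stood apart, and Nkx6-1, Pitx1 and Cux2 after their values were seen. Pax2 was not analysed here. Alternatives changed the pseudocount, normalization, filter, probe set rule, model and arrays included.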

Additional observations from a re-analysis of the deposited data

How the results depend on the processing

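Over 23 other settings, 11 of the 26 calls held in every setting that tested them, 15 were lost in at least 1, and 0 turned direction. Of 37 differences not called, 14 passed in some setting. Renal vesicle against duct gave 7 members, 4 with a filter of 6 arrays, 14 with array weights (a fit that stopped before convergence), 4 when a minimum fold of 1.5 was tested and 4 to 7 when 1 array was left out, the 4 coming without collecting duct replicate 1 or 2. Without both renal vesicle replicate 3 and collecting duct replicate 2, an alternative chosen after seeing the data, it gave 3. S-shaped body against duct gave 9, with array weights 15, with the minimum fold 4 and 7 to 10 when 1 array was left out. S-shaped body against renal vesicle gave 10, with the filter of 6 arrays 6, with the minimum fold 4 and 8 to 10 when 1 array was left out. The F test gave 13, with the filter of 6 arrays 7 and 11 to 13 when 1 array was left out. The stricter filter tests 11 members, and of the 13 called ones Irx1, Irx5, Msx1, Msx2, Msx3 and Tgif1 then give no value. Leaving out any 1 renal vesicle array gives none for Irx5, and leaving out any 1 duct array none for Msx2 and Nkx1-2; Msx3, Pou2f2 and Pou2f3 give none without certain arrays. The minimum fold ended 14 calls, among them all of Irx5, Msx1, Pbx3, Six4 and Tgif2. Pbx3 in the renal vesicle against the duct was also lost without further normalization (0.45, adjusted p = 0.0835), without a filter (0.57, 0.0521) and with only the groups compared in the fit (0.57, 0.0635); the cause was not tested.

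Over all genes, the counts called were 2512, 2613, 2897 and, in the F test, 3958. Array weights gave 4745, 4495 and, in the F test, 6107, the minimum fold 790, 1075 and 915, and leaving out both arrays 1545 for renal vesicle against duct. Centring on array medians in place of quantile normalization moved the median difference of all genes from 0.01 to 0.11 for renal vesicle against duct. Between the nephron structures it moved from -0.03 to -0.11. The share of calls that were higher then went from 49.6% to 59.8% and from 50.9% to 43.6%. Same-numbered arrays correlated in their deviations at -0.04 to 0.16, with 5 of 9 pairs over 0.1, and arrays of other numbers at -0.16 to 0.15. With 3 arrays per structure this cannot show whether the numbers pair the samples. With the number as a replicate block the member counts were 7, 9, 10 and 13. Signal over background limits the 49 dim members.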
